A study of Homo sapiens with 18 samples.

Results

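The nuclear genes for subunits of the mitochondrial respiratory chain and the ATP synthase were followed in poly(A) RNA-seq of DLD1 cells, a long-established line from a human colorectal adenocarcinoma. The members were taken by gene symbol alone, with no measured value, and numbered 76 of the 47021 genes in the count table. Complex I had 37, complex II 4, complex III 9, complex IV 10 and complex V, the ATP synthase, 15, and the electron carrier cytochrome c (CYCS) made up the rest. All groups were DLD1 cells that had received lentivirus and puromycin at 10 µg/ml to make stable lines. They carried a control guide (sgC, labelled WT) or a guide to ZNF692, a zinc-finger protein gene, named sgZ1 or sgZ3 (both labelled ZNF692 KO), with 3 libraries each; rRNA libraries of the same lines were not used here. The labels do not say whether a line was a clone or a pool, nor whether replicates were grown separately. The p-values therefore rest on library-to-library spread alone, which may be technical.

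Complexes I and II pass electrons from NADH and succinate to coenzyme Q, complex III passes them on to cytochrome c, and complex IV hands them to oxygen. Complexes I, III and IV pump protons as they work, and complex V uses the proton gradient to make ATP. Apart from complex II, each complex joins subunits made from mitochondrial DNA with many made from nuclear genes, and the nuclear ones are imported. In colorectal cells, as in most tissues, nuclear respiratory factor 1 (NRF1) and the ETS factor GABP are known activators of many of these genes.

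Library totals ran from 16044224 to 24535642 counts. ZNF692 mRNA was not lower in the libraries labelled knockout (6.51 ± 0.446 CPM in sgC, 10.3 ± 1.01 in sgZ1 and 7.43 ± 0.988 in sgZ3; SD, n = 3), so the mRNA gives no check of the knockout, and the directions below are between libraries as labelled. CPM are counts relative to library size, scaled by TMM, a factor that corrects for differences in composition. None of the 10 colonic epithelial markers was at 0 in any library, and their summed level was 10580 to 11540 CPM in the 3 sgZ3 libraries and 8561 to 9781 CPM in the other 6. The summed level of the 10 mesenchymal markers was 114.4 CPM in sgZ1 replicate 2 and 117.2 CPM in sgZ3 replicate 3 against 9.474 to 13.69 CPM in the other 7 libraries, where 3 or 4 of the 10 were at 0 (1 in sgZ1 replicate 2 and 3 in sgZ3 replicate 3). The summed level of 9 leukocyte and endothelial markers was 6.373 to 9.134 CPM. The part of these markers in the results was not tested, and counts of calls without both of those libraries are given below. The 13 mitochondrially encoded subunit genes are listed at 0 counts in every library, so only the nuclear side of each complex was measured.

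In control cells the subunit genes of one complex were far from equal in level. Levels between genes are compared as TPM, counts per base of the union of a gene's exons, scaled to the same total in every library. The most abundant tested member was ATP5F1B, the catalytic beta subunit of the ATP synthase, at 2415 TPM, followed at the top of their own complexes by CYC1, the cytochrome c1 of complex III (1008 TPM), NDUFB7 of complex I (713.5 TPM), COX8A of complex IV (607 TPM) and SDHB, the iron-sulfur subunit of complex II (264 TPM). CYCS stood at 263 TPM. The lowest tested members of each complex were SDHA, the flavoprotein subunit of complex II (5.39 TPM), NDUFV3 of complex I (10.8 TPM), ATP5ME of complex V (28.98 TPM), UQCR11 of complex III (30.5 TPM) and COX6C of complex IV (70.4 TPM). SDHA has near-identical copies elsewhere in the genome, and reads that matched several places may have been dropped or divided, so its level is uncertain. Per base of the principal transcript instead of the exon union, NDUFB9 (712.4 TPM) led complex I, COX4I1 (1261 TPM) led complex IV, and ATP5F1E (40.88 TPM) and COX7B (53.79 TPM) were lowest in complexes V and IV.

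**Figure D1:**
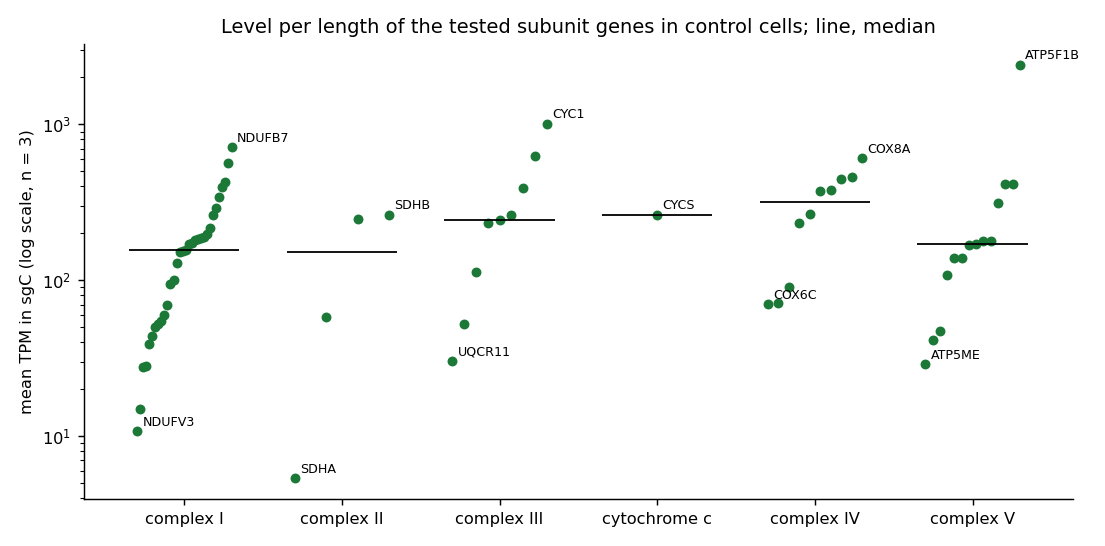
Mean TPM in the 3 sgC libraries (log axis) of each tested subunit gene, one dot a gene, ordered within its complex, with the median as a line and the highest and lowest gene named. By this exon-union measure complex IV had the highest median (318.8 TPM) of complexes I to V and complex II the lowest (151.8 TPM), while per base of the principal transcript the lowest median was that of complex I (159.6 TPM, against 168.3 for complex II).

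The subunit genes moved together from library to library, in the control libraries as well. As a log2 ratio to the sgC mean, the median of the 70 tested members was -0.017, 0.146 and -0.146 in sgC replicates 1, 2 and 3. It was -0.005, 0.28 and 0.124 in sgZ1, and 0.583, 0.541 and 0.134 in sgZ3. sgZ3 replicates 1 and 2 thus stood above all others, and sgZ3 replicate 3 stood just below sgC replicate 2. In complex I the medians in sgZ3 were 0.634, 0.588 and 0.134, in complex III 0.679, 0.588 and 0.164, in complex IV 0.586, 0.553 and 0.116, and in complex V 0.55, 0.52 and 0.096. Complex II was lower, at 0.433, 0.309 and 0.008. CYCS differed in shape, at 0.512, 0.394 and 0.462 in sgZ3. The order was also shared gene by gene. sgC replicate 2 was the highest sgC library for 64 of 70 members and sgC replicate 3 the lowest for 69, while sgZ3 replicate 3 was the lowest sgZ3 library for 67 and sgZ1 replicate 2 the highest sgZ1 library for 59. Such counts were not made for all tested genes. The medians of all 628 tested genes with principal transcripts under 1000 bases, given below, had the same order within each group. Together the members took 1.12 ± 0.0745% of counts in sgC, 1.18 ± 0.108% in sgZ1 and 1.3 ± 0.147% in sgZ3 (SD, n = 3). Fewer cells of a kind and less RNA per cell cannot be told apart in such bulk samples.

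**Figure D2:**
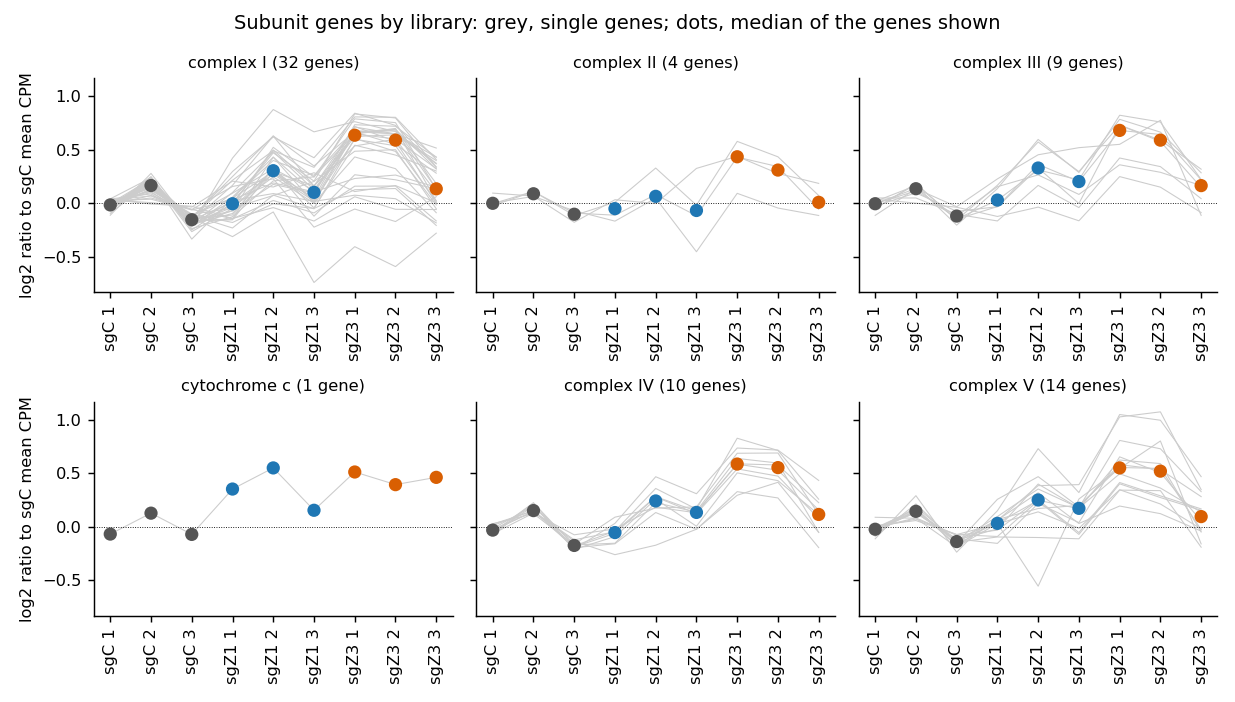
Log2 ratio of CPM to the sgC mean in each of the 9 libraries, by complex; grey lines join the values of one gene and carry no order in time, dots are medians, coloured by guide. The dots for sgZ3 1 and sgZ3 2 are highest in complexes I to V, sgZ3 3 lies near sgC 2, and cytochrome c is at 0.462 in sgZ3 3.

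Over both ZNF692 guides against sgC, 23 of 70 tested members rose and 1, NDUFB5, fell at a false discovery rate of 0.05, by edgeR's quasi-likelihood test adjusted over all 14732 tested genes. The share of all tested genes called higher was 18.6% and the share called lower 14.6%. The members' median log2 fold change was 0.27 against 0.0078 for all genes. By complex, 11 of 32 tested members of complex I rose, 0 of 4 of complex II, 4 of 9 of complex III, 3 of 10 of complex IV and 4 of 14 of complex V, and CYCS rose. No member of complex II passed an unadjusted p of 0.05 either, and DESeq2 also called 0 of its 4. The median log2 fold changes of complexes I to V were 0.30, 0.16, 0.36, 0.27 and 0.25. The count moved with single libraries. It was 3 without sgC replicate 1, 5 without sgC replicate 3 and 15 without sgZ3 replicate 2, but 46 without sgZ3 replicate 3 and 48 without sgZ3 replicate 3 and sgZ1 replicate 2, the libraries with mesenchymal transcripts, while the median stayed between 0.15 and 0.35 in all settings tried. Calls among all genes moved as well. With all libraries 4885 of 14732 genes were called. In those fits, in that order, 2201 of 15180, 2389 of 15068, 3646 of 15211, 6337 of 15021 and 7409 of 14923 were called. Of all genes called, 56.0% were higher, against 45.9% with upper-quartile factors and 36.6% with library totals in place of TMM factors. With library totals 16 members were called.

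In sgZ1 against sgC, 4 members rose (NDUFS5, NDUFB9, NDUFB10 and CYCS) and 0 fell, where 15.5% of all genes were called higher and 10.3% lower, and the members' median log2 fold change was 0.12. At an unadjusted p of 0.05, 12 members were higher and 1 lower of 70 in sgZ1, where 21.2% of all genes were higher and 17.1% lower at that p, and DESeq2 called 4 higher and 0 lower. In sgZ3 against sgC, 37 members rose and NDUFB5 fell, where 19.2% of all genes were called higher and 17.1% lower, with a median of 0.43. In sgZ3, 17 of 32 members rose in complex I, 1 of 4 in complex II, 6 of 9 in complex III, 6 of 10 in complex IV and 6 of 14 in complex V, and CYCS rose. All 3 sgZ3 libraries lay above all 3 sgC libraries for 34 of 70 members and below them for 1, and for 35 the groups overlapped. Of all tested genes, 25.7% lay above in this way and 26.6% below. For sgZ1 the groups overlapped for 62 members, with 7 above and 1 below, against 23.4% of all tested genes above and 20.9% below. Both comparisons share the sgC libraries. In sgZ1, 60.0% of all genes called were higher, against 36.0% with length and GC offsets, and in sgZ3 52.9%, against 41.5% with upper-quartile factors and 29.6% with library totals. Library totals also moved the median of all genes in sgZ3 from -0.0176 to -0.1725. The sgZ1 count was 1 without sgC replicate 1 or 3, 2 without sgZ1 replicate 2 or 3, 10 without sgZ3 replicate 3 and 8, of which 2 were lower, without both libraries with mesenchymal transcripts. Among all genes, 3807 of 14732 were called in sgZ1 with all libraries. In those fits, in that order, 2129, 2466, 3641, 2782, 4855 and 5894 of 14923 to 15180 tested genes were called. The sgZ3 count was 20 without sgC replicate 1, 18 without sgC replicate 3, 22 without sgZ3 replicate 1, 20 without sgZ3 replicate 2, 58 without sgZ3 replicate 3 and 60 without both of those libraries. Among all genes, 5355 of 14732 were called in sgZ3 with all libraries. In those fits, in that order, 3097, 3083, 3224, 3080, 6796 and 8246 of 14923 to 15220 tested genes were called.

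**Figure D3:**
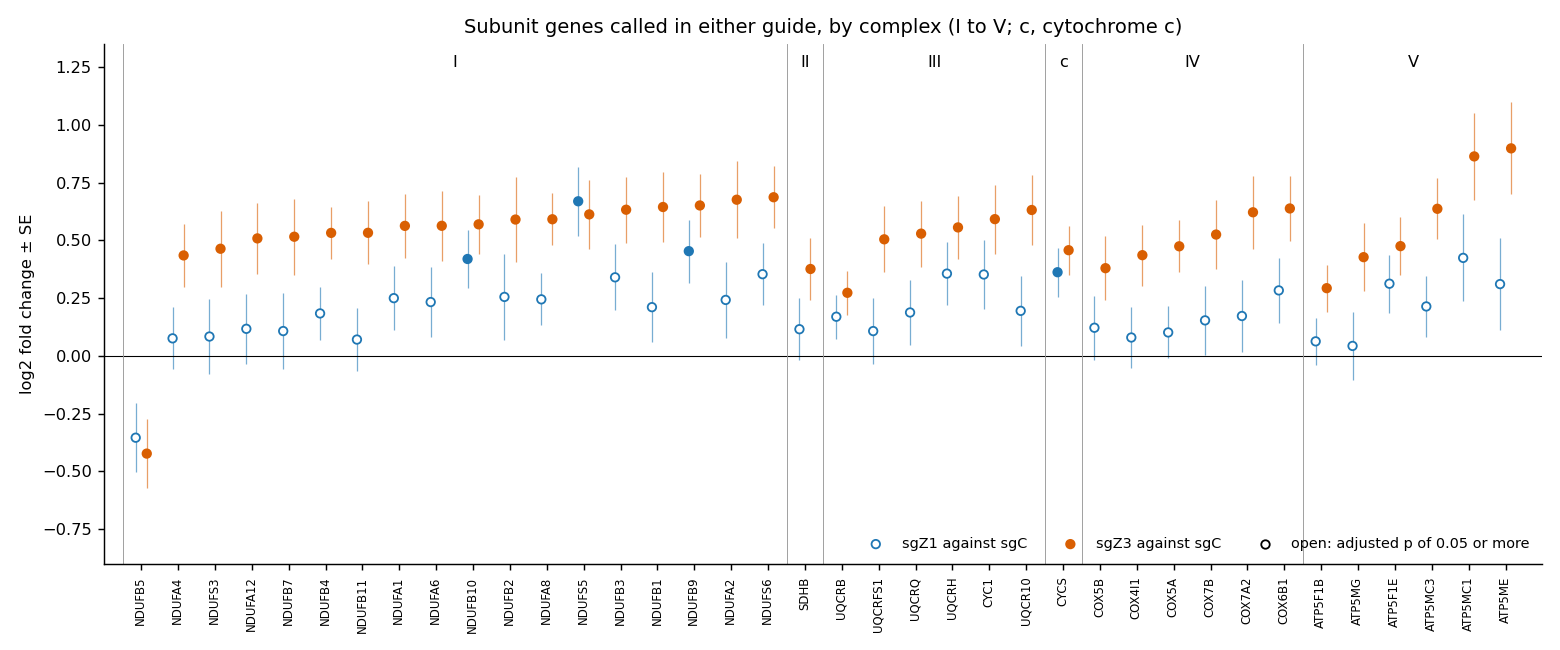
Log2 fold change with its standard error for the 38 members called in either guide against sgC, sorted within their complex by the change in sgZ3 (orange, sgZ3 against sgC; blue, sgZ1 against sgC); filled dots have an adjusted p under 0.05. All 38 orange dots are filled, since each of these members was called in sgZ3, with NDUFB5 the one below 0, and the 4 filled blue dots are NDUFB10, NDUFS5, NDUFB9 and CYCS.

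In complex I the 11 genes that rose over both guides were accessory subunits, which surround the catalytic core. NDUFS5, an accessory subunit on the intermembrane-space side, stood at 72.04, 89.5 and 64.9 CPM in sgC, 101, 139 and 120 in sgZ1, and 128, 120.2 and 97.8 in sgZ3. The gene spans chr1:39026318-39034636 on the plus strand of GRCh38 (all 76 members are protein-coding). Every ZNF692-guide library lay above every sgC library. Its log2 fold change was 0.64 (SE 0.13, adjusted p = 0.00413) over both guides, 0.67 (SE 0.15, adjusted p = 0.00641) in sgZ1 and 0.61 (SE 0.15, adjusted p = 0.00892) in sgZ3. NDUFB9, in the membrane arm that pumps protons, stood at 193, 224 and 179 CPM in sgC, 244, 305 and 266 in sgZ1, and 355, 328 and 251 in sgZ3, again with no overlap. It rose by 0.55 (SE 0.12, adjusted p = 0.00547) on the log2 scale over both guides. NDUFB10, also of the membrane arm, rose by 0.49 (SE 0.11, adjusted p = 0.00637), from 98.9, 115 and 93.6 CPM in sgC to 122, 159 and 131 in sgZ1 and 163, 161 and 133 in sgZ3. NDUFS6, an accessory subunit of the matrix arm, where NADH is oxidised, rose by 0.52 (SE 0.12, adjusted p = 0.0066). It stood at 61.6, 75.9 and 59.9 CPM in sgC, 76.4, 92.6 and 83.1 in sgZ1, and 115, 115 and 87.4 in sgZ3, and all 6 ZNF692-guide libraries were above sgC, sgZ1 replicate 1 only just. The calls of NDUFS5 and NDUFB9 over both guides held without any one library and without both libraries carrying mesenchymal transcripts, and that of NDUFS6 was lost without sgC replicate 1 (adjusted p = 0.0516). Alone, the sgZ1 calls of NDUFB9 and NDUFB10 (log2 fold changes 0.45 and 0.42, adjusted p = 0.0286 for each) were lost without sgC replicate 1 or 3 or sgZ1 replicate 2 or 3, at adjusted p-values from 0.0567 for NDUFB10 without sgZ1 replicate 3 to 0.123 for NDUFB10 without sgC replicate 3.

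One gene of complex I moved the other way. NDUFB5, a membrane-arm accessory subunit at chr3:179604690-179627647 (plus strand), stood at 73.2, 75.7 and 64.9 CPM in sgC, 57.3, 67.3 and 42.5 in sgZ1, and 53.7, 47.1 and 58.6 in sgZ3. All 3 sgZ3 libraries were below sgC, while sgZ1 replicate 2 overlapped it. The log2 fold change was -0.39 (SE 0.13, adjusted p = 0.0362) over both guides and -0.42 (SE 0.15, adjusted p = 0.0454) in sgZ3. Over both guides the call was lost without any one of the sgC libraries, without sgZ1 replicate 1 or without sgZ3 replicate 1 or 2, at adjusted p-values from 0.0525 to 0.133, and the sgZ3 call was lost without any one of the sgC libraries, sgZ1 replicate 1 or sgZ3 replicates 1 and 2 (0.0628 to 0.17). Both calls were also lost with offsets for exon-union length and GC content (adjusted p = 0.0925 over both guides and 0.224 in sgZ3). With offsets for principal transcript length and GC content, added after the data were seen, both were kept.

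The catalytic core of complex I carries the flavin and the iron-sulfur clusters that conduct electrons, and 5 of its 7 nuclear subunits were tested. Over both guides edgeR called 0 of these 5, 0 at an unadjusted p of 0.05, and DESeq2 also called 0. Of all tested genes 18.6% were called higher and 14.6% lower, so 0 of 5 cannot set the core apart. Among them the log2 fold change was -0.07 for NDUFS1, 0.27 for NDUFS3, 0.21 for NDUFS8 and -0.02 for NDUFV1, which binds NADH. In sgZ3, NDUFS3 alone of the core rose, from 156, 165 and 138 CPM in sgC to 251.5, 229 and 153 (log2 fold change 0.46, SE 0.16, adjusted p = 0.0435), with sgZ3 replicate 3 inside the control range. That call was lost without any one library but sgZ1 replicate 2 or sgZ3 replicate 3 (adjusted p from 0.052 to 0.184). Of the 27 tested accessory subunits 11 rose and 1 fell over both guides, with a median log2 fold change of 0.31, and 16 rose and 1 fell in sgZ3, with a median of 0.52. The core transcripts were also longer, at a median of 2042 bases against 991 for the accessory ones, and the split by role was made after the values were seen and not tested. NDUFA4, which the symbol rule places in complex I, is now known as a subunit of complex IV, and it rose in sgZ3 (0.435, SE 0.13, adjusted p = 0.0255), a call lost without sgC replicate 1 or 3 or sgZ3 replicate 1 or 2 (0.0751 to 0.118).

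In complex II, which has no mitochondrially encoded subunit and also serves the citric acid cycle, SDHB (chr1:17018722-17054170, minus strand) was the 1 gene called, in sgZ3. It stood at 157, 169.6 and 145 CPM in sgC, 158, 197 and 155 in sgZ1, and 234.5, 212 and 165 in sgZ3, where replicate 3 lay between the control libraries. Its log2 fold change in sgZ3 was 0.38 (SE 0.14, adjusted p = 0.0467), and the call was lost without any one of the sgC libraries, sgZ1 replicate 1 or 3, or sgZ3 replicate 1 or 2, at adjusted p-values from 0.06 to 0.193. The membrane anchors SDHC and SDHD, which hold the coenzyme Q site, had log2 fold changes over both guides of 0.10 (SE 0.11, adjusted p = 0.473) and -0.10 (SE 0.10, adjusted p = 0.478). SDHA had 0.22 (SE 0.12, adjusted p = 0.167). SDHD stood at 169, 176 and 160.4 CPM in sgC, 149.9, 174 and 123 in sgZ1, and 179.5, 163 and 155.5 in sgZ3, so that all 3 groups overlapped.

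In complex III, CYC1, UQCRH, UQCR10 and UQCRQ rose over both guides. CYC1, which passes electrons to cytochrome c, stood at 487.5, 540.2 and 418 CPM in sgC, 529.7, 728 and 588 in sgZ1, and 829, 763 and 587 in sgZ3. sgZ1 replicate 1 overlapped the controls and sgZ3 did not. The log2 fold change was 0.47 (SE 0.13, adjusted p = 0.0175). UQCRH (chr1:46303631-46316776, plus strand), the hinge protein that helps CYC1 meet cytochrome c, stood at 128, 151 and 119 CPM in sgC, 149, 198 and 163 in sgZ1, and 220.5, 200 and 166 in sgZ3, and rose by 0.46 (SE 0.12, adjusted p = 0.0133). The small subunit UQCR10 rose by 0.41 (SE 0.13, adjusted p = 0.0336) and UQCRQ by 0.36 (SE 0.13, adjusted p = 0.0443). All 4 calls were lost without sgC replicate 1 (adjusted p from 0.0725 to 0.16) or without sgC replicate 3 (from 0.0849 to 0.197). Those of UQCR10 and UQCRQ were also lost without sgZ1 replicate 2 or 3 or sgZ3 replicate 1 or 2 (0.061 to 0.0915), and that of UQCR10 without sgC replicate 2 (0.051). The core proteins UQCRC1 and UQCRC2, which do not carry electrons, had log2 fold changes of 0.14 (adjusted p = 0.309) and 0.0012 (adjusted p = 0.993). UQCRFS1, the Rieske iron-sulfur protein, rose in sgZ3 (0.50, SE 0.14, adjusted p = 0.0172) and had 0.11 (adjusted p = 0.621) in sgZ1, and the sgZ3 call was lost without sgC replicate 1 or 3 or sgZ3 replicate 1 or 2 (0.0659 to 0.0818).

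CYCS, the carrier between complexes III and IV, rose in each guide. It lies at chr7:25120091-25125361 (minus strand). It stood at 270.5, 309.8 and 270 CPM in sgC, 362, 415 and 316 in sgZ1, and 404, 373 and 391 in sgZ3, and every ZNF692-guide library was above every control. The log2 fold change was 0.41 (SE 0.09, adjusted p = 0.00672) over both guides, 0.36 (SE 0.11, adjusted p = 0.0252) in sgZ1 and 0.46 (SE 0.11, adjusted p = 0.00676) in sgZ3. The difference between the guides was 0.10 (SE 0.11, adjusted p = 0.522). The call over both guides was lost without sgC replicate 1 (adjusted p = 0.0521), and that of sgZ1 without sgC replicate 1 or 3 or sgZ1 replicate 1 or 2 (0.0564 to 0.116). Its principal transcript, at 4098 bases, was among the longest of the members.

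In complex IV, whose nuclear subunits surround a mitochondrially encoded catalytic core, COX6B1, COX5A and COX7A2 rose over both guides. COX6B1 (chr19:35648223-35658861, plus strand), which lies at the intermembrane-space face, stood at 100, 121 and 89.7 CPM in sgC, 106, 144 and 129 in sgZ1, and 173, 171 and 140.2 in sgZ3, and rose by 0.46 (SE 0.12, adjusted p = 0.0147). COX7A2 stood at 103, 127 and 96.1 CPM in sgC, 106, 139.5 and 122 in sgZ1, and 193, 178.5 and 130.1 in sgZ3, and rose by 0.40 (SE 0.14, adjusted p = 0.0438). COX5A, on the matrix side, rose by 0.29 (SE 0.10, adjusted p = 0.0414). For COX6B1 and COX7A2 the sgZ3 libraries lay above the controls and the sgZ1 libraries overlapped them. All 3 calls were lost without sgC replicate 1 (adjusted p from 0.0792 to 0.171) or sgC replicate 3 (from 0.095 to 0.197), and those of COX5A and COX7A2 also without sgZ1 replicate 2 or 3 or sgZ3 replicate 1 or 2 (0.0714 to 0.0902). COX7B, a small membrane subunit, rose in sgZ3 (0.53, SE 0.15, adjusted p = 0.0172) and had 0.15 (adjusted p = 0.481) in sgZ1. That call was lost without sgC replicate 1 or 3 or sgZ3 replicate 1 or 2 (0.0718 to 0.0816), and its difference between the guides was 0.37 (SE 0.15, adjusted p = 0.0793).

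In complex V, 2 of 3 c-ring genes, 1 of 2 tested membrane accessory subunits, 1 of 5 head subunits and 0 of 4 peripheral stalk subunits rose over both guides, a split made after the values were seen. Of all tested genes 18.6% were called higher, so counts from groups this small cannot tell the roles apart. The c-ring, which turns as protons pass, is built from 1 protein encoded by these 3 genes. ATP5MC1 (chr17:48892765-48895871, plus strand) stood at 100.5, 133 and 92.2 CPM in sgC, 121, 180.4 and 136 in sgZ1, and 225, 217 and 150.5 in sgZ3, and rose by 0.64 (SE 0.17, adjusted p = 0.013). ATP5MC3 stood at 278, 333 and 265 CPM in sgC, 312, 373 and 330.5 in sgZ1, and 511, 484 and 367 in sgZ3, and rose by 0.43 (SE 0.12, adjusted p = 0.0161). In both genes sgZ3 lay above sgC and sgZ1 overlapped it. ATP5ME (chr4:672436-674338, minus strand), a small membrane subunit, rose by 0.60 (SE 0.18, adjusted p = 0.0218), from 6.48, 7.5 and 5.8 CPM in sgC to 6.89, 8.76 and 8.82 in sgZ1 and 13.9, 14.4 and 8.53 in sgZ3. MYL5 lies opposite 61.6% of the exonic bases of ATP5ME, and without a stated strand setting their reads cannot be told apart. Of the 5 head subunits ATP5F1E rose over both guides (0.39, SE 0.11, adjusted p = 0.0186), and the catalytic subunits ATP5F1A and ATP5F1B had 0.16 (adjusted p = 0.194) and 0.18 (adjusted p = 0.138). ATP5F1B rose in sgZ3 (0.29, SE 0.10, adjusted p = 0.0405), a call lost without any one sgC library, sgZ1 replicate 1 or sgZ3 replicate 1 or 2 (0.0507 to 0.154). None of the 4 peripheral stalk genes passed the test over both guides, where 1 passed an unadjusted p of 0.05 and DESeq2 called 0, and their median was 0.19. The calls of ATP5MC1, ATP5MC3, ATP5F1E and ATP5ME were lost without sgC replicate 1 (adjusted p from 0.0806 to 0.104) or sgC replicate 3 (from 0.0872 to 0.111), and that of ATP5ME also without sgZ1 replicate 3 (0.0505).

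**Figure D4:**
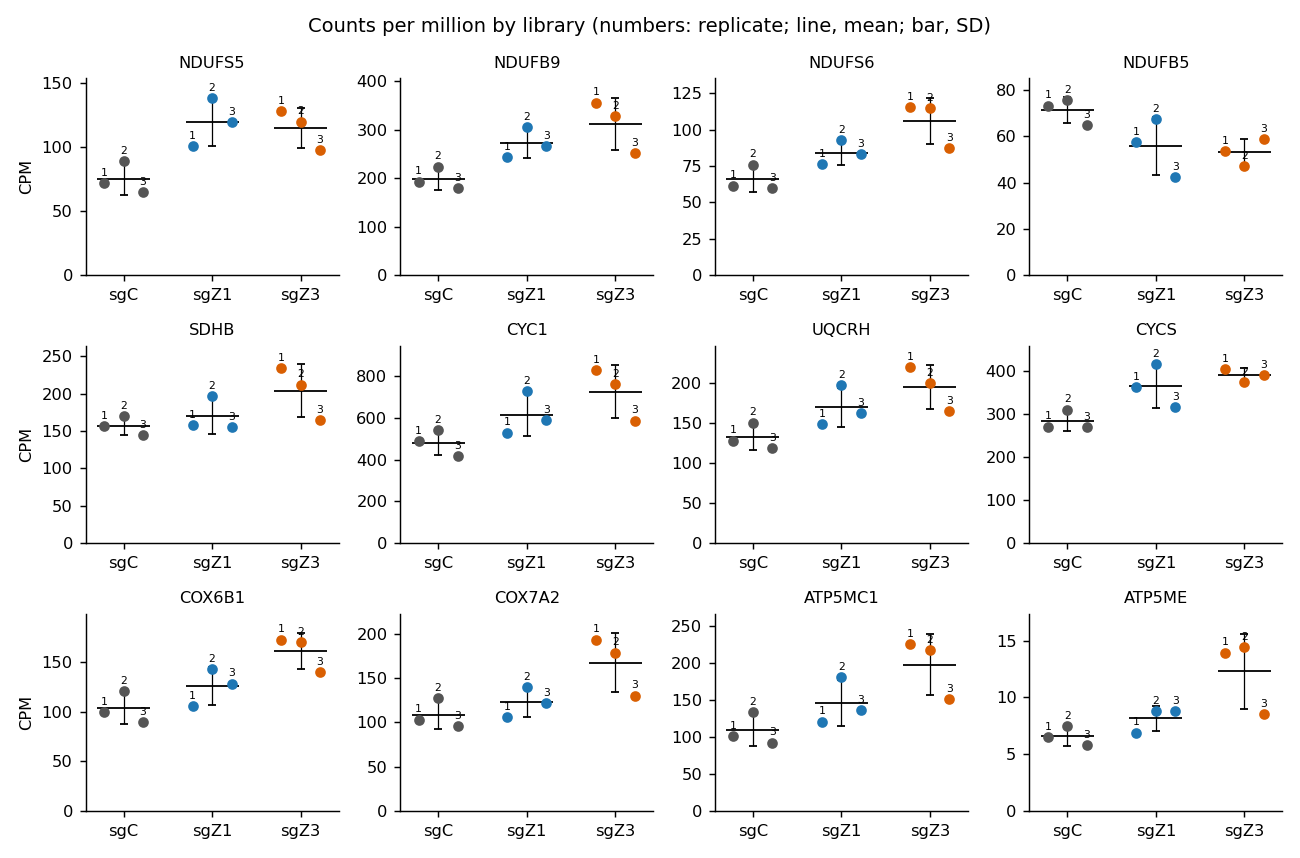
CPM in each library (axis from 0; numbers mark the replicate) of 12 members, with the mean as a line and the SD of 3 libraries as a bar. NDUFS5, NDUFB9, NDUFS6 and CYCS show no overlap between sgC and the ZNF692-guide libraries, and NDUFB5 is lower in sgZ3 than in sgC.

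Directly compared, sgZ3 was higher than sgZ1 for 11 of 70 members and lower for 0, where 12.8% of all tested genes were called higher and 15.8% lower, and 0 members were lower at an unadjusted p of 0.05 and 0 by DESeq2. The members' median difference was 0.29 on the log2 scale against -0.01 for all genes. Of the 9 tested colonic epithelial markers all were higher in sgZ3 than in sgZ1, 6 of them by the test, with a median difference of 0.3164. Against sgC, 4 of these markers fell and 0 rose in sgZ1 (median -0.2755; 0 higher at an unadjusted p of 0.05), and 3 rose and 0 fell in sgZ3 (median 0.0535; 1 lower at an unadjusted p of 0.05). Their part in the difference between the guides was not tested. By complex 5 of 32 members were called in complex I, 0 of 4 in complex II, 1 of 9 in complex III, 3 of 10 in complex IV and 2 of 14 in complex V. In complex II, 1 member passed an unadjusted p of 0.05 and DESeq2 called 0. ATP5ME had the highest difference (0.59, SE 0.20, adjusted p = 0.0418). ATP5F1D, the delta subunit of the ATP synthase head, had 0.50 (SE 0.24, adjusted p = 0.143), with 94.1, 62.6 and 110.4 CPM in sgZ1 and 135, 161 and 82.5 in sgZ3, which overlap. NDUFB11, of the membrane arm of complex I, had 0.46 (SE 0.14, adjusted p = 0.0244), with 112, 133 and 126 CPM in sgZ1 and 187, 190.6 and 134 in sgZ3. RBM10 lies opposite 44.9% of the exonic bases of NDUFB11. At the other end stood NDUFV3 and NDUFA5, matrix-arm subunits of complex I, at -0.12 (adjusted p = 0.372) and -0.12 (adjusted p = 0.481), and NDUFB5 at -0.07 (adjusted p = 0.76). This count too depended on single libraries. It was 0 without sgZ1 replicate 1, sgZ1 replicate 3, sgZ3 replicate 1 or sgZ3 replicate 2 (with 5, 12, 8 and 9 members higher, and 0, 1, 0 and 0 lower, at an unadjusted p of 0.05), 2, 7 and 4 without sgC replicates 1, 2 and 3, 29 without sgZ1 replicate 2, 46 without sgZ3 replicate 3 and 58 without both of these. Among all genes, 4209 of 14732 were called between the guides with all libraries. In the fits with 0 members called, 2501, 2910, 2690 and 2636 genes were. The number was 3496, 3631 and 3688 without the sgC replicates. It was 5527 without sgZ1 replicate 2, 6153 without sgZ3 replicate 3 and 7932 without both. Those fits tested 14923 to 15220 genes. Of all genes called, 44.7% were higher, against 27.0% with library totals and 71.7% with length and GC offsets.

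Transcript length moved with these values. The principal transcripts of the tested members had a median length of 1166 bases, against 3190 for all tested genes with one. Among all 628 tested genes with a principal transcript under 1000 bases, the median log2 ratio to the sgC mean was -0.011, 0.121 and -0.127 in sgC, 0.006, 0.261 and 0.15 in sgZ1, and 0.512, 0.489 and 0.103 in sgZ3, with sgZ3 replicates 1 and 2 highest, as for the members. Among the 4759 genes over 4000 bases it ran the other way, to -0.306, -0.306 and -0.072 in sgZ3. In sgZ3 against sgC the median log2 fold change of those short genes was 0.422, and that of the 30 members under 1000 bases was 0.531. The 31 members of 1000 to 4000 bases had 0.376, against 0.082 for all 7534 genes of that length, and the 9 members over 4000 bases had 0.273, against -0.232. Across the 70 members, which are not independent replicates, the sgZ3 log2 fold change had a Pearson correlation of -0.423 and a Spearman correlation of -0.49 with log2 length. The difference between sgC replicates 2 and 3, libraries of one group, had -0.554 and -0.532. With offsets for exon-union length and GC content 22 members were called over both guides and 40 in sgZ3, all higher, and 4 rose and 3 fell in sgZ1. That fit tested 14616 genes and called 5150 over both guides, 5083 in sgZ1 and 5721 in sgZ3. Among these calls 2454, 1829 and 3492 were higher, in that order. With offsets for principal transcript length and GC content, added after the data were seen, 17 rose and 3 fell over both guides, 7 rose and 7 fell in sgZ1, and 31 rose and 1 fell in sgZ3, with medians of 0.15, 0.04 and 0.22. Of all 12921 genes in this fit, 5063 were called over both guides, 5133 in sgZ1 and 5500 in sgZ3. Here 47.5%, 35.5% and 61.3% of the calls were higher. Without offsets the members' median stood above that of all genes by 0.2635 over both guides, 0.1117 in sgZ1, 0.4519 in sgZ3 and 0.2988 in sgZ3 against sgZ1. These gaps were 0.2358, 0.1539, 0.3205 and 0.1739 with exon-union offsets, and 0.1654, 0.1366, 0.1728 and 0.0747 with principal transcript offsets. Of the genes described above, NDUFS5, NDUFB9, NDUFS6 and CYCS kept their calls over both guides under either offset, and NDUFB10 (adjusted p = 0.108), COX6B1 (0.11), CYC1 (0.208), ATP5ME (0.078), UQCR10 (0.0842), UQCRQ (0.302) and COX5A (0.257) lost theirs under the latter. Under the exon-union offsets CYC1 (0.155), COX5A (0.144), UQCRQ (0.121) and NDUFB5 (0.0925) lost theirs over both guides, NDUFB9 (0.0652) and NDUFB10 (0.21) in sgZ1, and NDUFS3 (0.0781), SDHB (0.0612), ATP5F1B (0.167) and NDUFB5 (0.224) in sgZ3. Under the principal transcript offsets NDUFB10 lost its call in sgZ1 (0.375). In sgZ3 the calls of NDUFS5 (0.0558), NDUFB10 (0.0571), UQCRH (0.0512), UQCRQ (0.0742) and SDHB (0.201) were lost under them. So were those of NDUFS3 (0.32), ATP5F1B (0.167), NDUFB7 (0.226) and COX4I1 (0.276). Why length moved with the libraries was not tested.

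**Figure D5:**
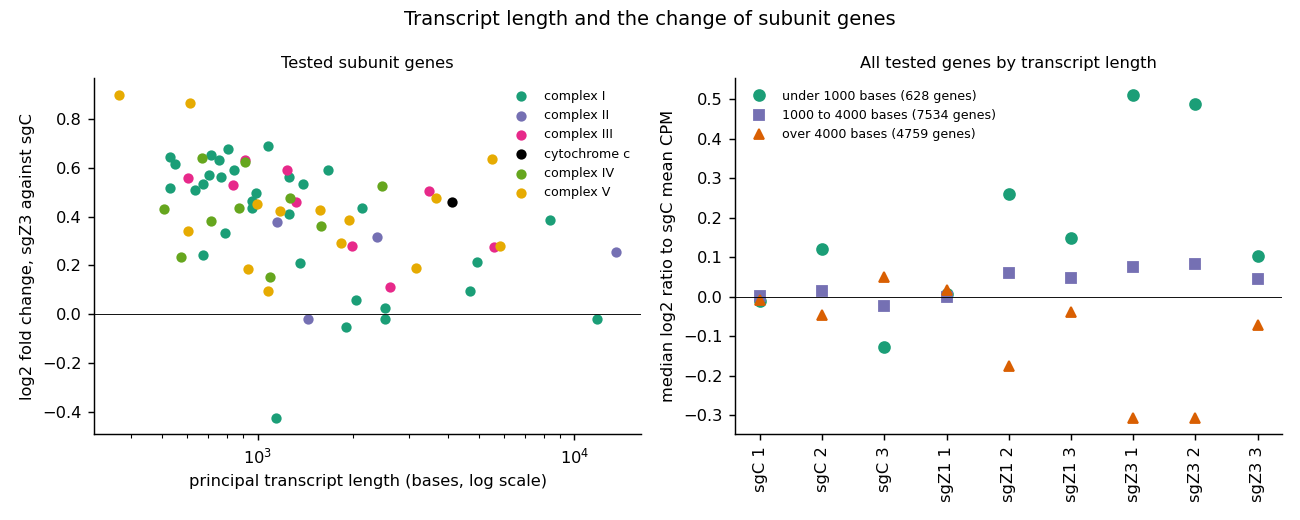
Left, log2 fold change of each tested member in sgZ3 against its principal transcript length (log axis), coloured by complex; right, median log2 ratio to the sgC mean in each library for all tested genes under 1000, from 1000 to 4000 and over 4000 bases. Shorter members tend to lie higher on the left, and on the right genes under 1000 bases are highest in sgZ3 1 and sgZ3 2, where genes over 4000 bases are lowest.

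The remaining 6 members did not pass the filter on low counts, and their counts were near 0 in all 9 libraries. The sums over all libraries were 1 count for NDUFA7, 10 for ATP5MF, 16 for NDUFV2, 20 for NDUFA11, 23 for NDUFB8 and 28 for NDUFS7. NDUFS7 and NDUFV2 are core subunits of complex I. Rows that share exons with these genes held many more counts, with 11840 for the readthrough gene ATP5MF-PTCD1, 435 for RP11-21J18.1, which shares exons with NDUFV2, 15193 for LLNLR-307A6.1 on the strand opposite NDUFS7, 20600 for HIF1AN opposite NDUFB8 and 39688 for RPS28 opposite NDUFA7. The pseudogene NDUFV2P1 held 190. For NDUFA11 the rows that shared exons held at most 3 counts. The part of shared exons in these low counts was not tested, and the values say nothing of the level of these 6 transcripts. Over all 76 members, 13 share over 10% of their exonic bases with another gene on the same strand and 15 with one on the opposite strand, and 47 have pseudogene rows in the table, 205 in all. Among those sharing bases on the opposite strand are ATP5ME, NDUFB11, NDUFA1 (44.5%, RNF113A) and NDUFB9 (21.0%, MTSS1 and TATDN1). Without a stated strand setting, reads from such bases cannot be told apart.

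Promoter sequence is shown as a description of the members, and its part in their movement between libraries was not tested. RefSeq promoters (GRCh38.p14) matched 62 of the 76 members, and the 250 bases before the start were searched on both strands for short cores, spelled out here with no allowance for mismatches. The NRF1 core GCATGCGC was in 13 of 62 (21.0%), against 2.81% of all 27305 promoters, a set not limited to genes tested here. The ETS core CCGGAAG, the kind GABP binds, was in 16 (25.8%) against 8.82%, the SP1 core GGGCGG in 35 (56.5%) against 42.31%, and the YY1 core AAGATGGC in 1 (1.6%) against 1.37%. None of the cores was in 18 of the 62. Of the 13 members with the NRF1 core, 5 were called over both guides, 7 were not and 1 was not tested, and of the 16 with the ETS core 4 were called. Of all 70 tested members 24 were called over both guides, and of all 14732 tested genes 4885. Counts this small cannot set members with a core apart. A match is a description of letters and not a binding site. The windows below, with the NRF1 core in capitals and up to 25 bases on each side, lie upstream of the annotated transcripts and are read 5′ to 3′ on the gene's strand. Capitals mark the first match alone. In NDUFB4 and SDHD a further match, GCATGCGC on the gene's strand, overlaps it and ends in lower case. The 8 windows shown are those with the core wholly upstream of the annotated gene, and whether a member was called played no part. The other members with the core, such as NDUFA6 (called) and ATP5F1C (not called), are not shown. ATP5ME, CYCS, NDUFB4 and NDUFS6 were called over both guides, and COX5B, COX6A1, SDHB and SDHD were not. They lie at chr4:674339-674379 (minus strand, ATP5ME), chr7:25125397-25125454 (minus, CYCS), chr3:120596152-120596209 (plus, NDUFB4), chr5:1801336-1801393 (plus, NDUFS6), chr2:97645901-97645958 (plus, COX5B), chr12:120437870-120437927 (plus, COX6A1), chr1:17054200-17054257 (minus, SDHB) and chr11:112086738-112086772 (plus, SDHD).
ATP5ME: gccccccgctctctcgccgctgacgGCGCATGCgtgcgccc
CYCS: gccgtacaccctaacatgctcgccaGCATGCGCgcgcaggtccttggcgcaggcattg
NDUFB4: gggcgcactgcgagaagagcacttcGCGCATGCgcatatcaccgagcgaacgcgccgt
NDUFS6: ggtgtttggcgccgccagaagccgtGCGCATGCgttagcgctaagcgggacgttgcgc
COX5B: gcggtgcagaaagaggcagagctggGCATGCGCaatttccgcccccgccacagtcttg
COX6A1: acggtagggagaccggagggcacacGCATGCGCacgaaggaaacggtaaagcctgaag
SDHB: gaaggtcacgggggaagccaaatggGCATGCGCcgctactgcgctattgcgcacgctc
SDHD: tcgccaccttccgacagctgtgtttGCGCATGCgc
The core stands on either strand among called and uncalled members alike.

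Genes that build the complexes were counted in the same fit, where 18.6% of all tested genes rose and 14.6% fell over both guides (median 0.0078). Of 19 tested complex I assembly factors 12 rose and 0 fell over both guides (median log2 fold change 0.40), with 1 lower at an unadjusted p of 0.05. Those with the smallest adjusted p were NDUFAF8 (1.11, SE 0.20), NDUFAF4 (0.62, SE 0.13) and DMAC2 (0.44, SE 0.09). Of 26 complex IV assembly factors 13 rose and 1 fell (median 0.26), led by SCO2, a copper chaperone (1.42, SE 0.21), COA7 (0.47, SE 0.08) and CMC2 (0.72, SE 0.14). Of 8 for complex III, 4 rose and 1 fell, among them BCS1L, the ATPase that inserts the Rieske protein (0.60, SE 0.11). Of 4 for complex II, SDHAF3 rose (0.64, SE 0.14) and SDHAF4, which protects SDHA before assembly, fell (-0.36, SE 0.11). Of 5 for complex V, TMEM70 rose (0.40, SE 0.13). Of 7 tested subunits and isoforms that the symbol rule leaves out, ATP5MJ, ATP5MK and NDUFAB1 rose, and NDUFA4L2, a hypoxia-inducible paralogue of NDUFA4, fell (-1.27, SE 0.31), with sgC at 3.21 ± 0.536 CPM, sgZ1 at 1.61 ± 1.03 and sgZ3 at 1.11 ± 0.222 (SD, n = 3). Of 23 import genes 14 rose and 0 fell (median 0.43), led by TOMM40, the channel of the outer membrane (0.82, SE 0.10), TIMM8A (1.31, SE 0.16) and TIMM21 (0.64, SE 0.10), with 0 lower at an unadjusted p of 0.05.

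Neighbouring pathways were counted in the same way, against the same 18.6% of all tested genes higher and 14.6% lower. Of 14 citric acid cycle genes 3 rose and 1 fell over both guides, with a median of 0.06. IDH3A, a subunit of NAD-dependent isocitrate dehydrogenase, rose by 0.62 (SE 0.10), OGDH by 0.31 (SE 0.07), and IDH2 fell (-0.24, SE 0.07). Of 12 coenzyme Q genes PDSS1 rose (0.46, SE 0.13) and 0 fell, with 1 lower at an unadjusted p of 0.05. Of 16 regulators of mitochondrial biogenesis 6 rose and 1 fell, with the smallest adjusted p in POLRMT, the mitochondrial RNA polymerase (0.48, SE 0.08), TWNK, the mitochondrial DNA helicase (0.82, SE 0.13) and MYC (0.53, SE 0.11). GABPA, the DNA-binding part of GABP, was the 1 that fell (-0.40, SE 0.11, adjusted p = 0.0144). MYC, a transcription factor, rose by 0.97 in sgZ1 and had 0.08 (adjusted p = 0.617) in sgZ3, with a difference between the guides of -0.885 (SE 0.12, adjusted p = 0.000273). Of the mitochondrial ribosomal protein genes, which like the subunits are nuclear genes for imported proteins, 41 of 75 tested rose and 0 fell over both guides (2 lower at an unadjusted p of 0.05), with medians of 0.34 over both guides, 0.22 in sgZ1 and 0.51 in sgZ3. In sgZ1, 18 of 75 of them rose, where 15.5% of all tested genes did, and in sgZ3, 50 rose and 2 fell, where 19.2% of all rose and 17.1% fell. The difference between them and the respiratory chain subunits was not tested.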

How the data were processed

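Poly(A) RNA-seq counts of 9 DLD1 libraries were used. Per the submitters' processing notes the authors used STAR 2.5.2b, SAMtools 1.9, HTSeq and DESeq2 with hg38/GRCh38; annotation release and strand setting: not given in the sources used here. The deposited values are raw counts per gene, used as deposited. Genes passing edgeR's filterByExpr (14732) were fitted with TMM factors and the robust quasi-likelihood test (edgeR 4.0.16, limma 3.58.1, R 4.3.3) over all 9 libraries with group alone, and p-values were adjusted by Benjamini-Hochberg over all of them. Common biological variation was 12.7%. CPM values were computed with the TMM factors, and library ratios used log2 of CPM + 0.5. Lengths, GC content and gene positions came from GENCODE 29, which holds 44831 of the 47021 gene IDs and may differ from the authors' annotation. Alternatives were other scaling factors, library totals, DESeq2 1.42.0, other filters, only the groups compared, a replicate block, length and GC offsets and leaving out libraries.

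Members were taken by symbol. The genes named were, in each complex, the 4 with the smallest adjusted p over both guides and those of highest and lowest level, the 3 highest and 3 lowest differences between the guides, any called against the majority, and up to 3 of each pathway list. Other genes (UQCRFS1, UQCRC1, UQCRC2, ATP5F1A, NDUFA4, NDUFAB1, NDUFA4L2, GABPA and 4 genes of the core of complex I) were chosen after their values were seen. Members and lists were chosen with earlier results of these data known, and the split by role and the offsets by principal transcript after the values were seen. Scripts were tested on simulated data. Figures were drawn with matplotlib 3.10.9. One result is not reported here.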

Additional observations from a re-analysis of the deposited data

Results flagged for a closer look

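For 11 of 70 tested members the difference between the guides itself passed the quasi-likelihood test of edgeR (Benjamini-Hochberg adjusted over all tested genes), with sgZ3 higher than sgZ1. Of all tested genes, 12.8% were called higher in sgZ3 than in sgZ1 and 15.8% lower. On the log2 scale the differences in complex I were 0.46 for NDUFB11, 0.45 for NDUFA9 (adjusted p = 0.0411), 0.43 for NDUFB1 (0.0491), 0.35 for NDUFA8 (0.0375) and 0.35 for NDUFB4 (0.037). UQCR10 of complex III had 0.44 (0.0489). In complex IV they were 0.45 for COX7A2 (0.0498), 0.39 for COX6A1 (0.0457) and 0.37 for COX5A (0.0274), and in complex V 0.59 for ATP5ME and 0.42 for ATP5MC3 (0.0311). Each of these calls was lost without sgZ1 replicate 1, sgZ1 replicate 3, sgZ3 replicate 1 or sgZ3 replicate 2.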

How the results depend on the processing

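The number of members called moved with the settings, while their median log2 fold change kept its sign in every setting run (0.1453 to 0.3546 over both guides, 0.0438 to 0.2067 in sgZ1, 0.2164 to 0.5751 in sgZ3 and 0.1752 to 0.4686 in sgZ3 against sgZ1). The number of all genes called moved as well. It ran from 2201 to 7409 over both guides and from 2005 to 5894 in sgZ1. In sgZ3 it ran from 2609 to 8246, and in sgZ3 against sgZ1 from 2254 to 7932. Over both guides 24 of 70 tested members were called, against 40 of 76 with no low-count filter. Fits with no filter tested 28999 genes, against 14732 with it. The count over both guides was 48 without the libraries sgZ1 2 and sgZ3 3, 6 at a false discovery rate of 0.01, and 3 to 46 with one library left out. In sgZ1 the count of 4 became 12 with no filter, 1 of them lower, and 7 with length and GC offsets, 3 of them lower. It was 8 without those libraries, 14 with principal transcript length and GC offsets, 1 at the stricter rate, and 1 to 10 with one library left out. In sgZ3 the count of 38 became 25 with library totals, 60 without those libraries, 18 at the stricter rate, and 18 to 58 with one library left out. In sgZ3 against sgZ1 the count of 11 became 3 with upper-quartile factors, 28 with no filter, 2 at a mean of at least 10 CPM, 2 with only the groups compared, 37 with length and GC offsets, 58 without those libraries, 26 with principal transcript length offsets, and 0 to 46 with one library left out. It was 0 by edgeR with library totals (10 higher and 1 lower at an unadjusted p of 0.05) and 0 at the stricter rate (32 and 0), while DESeq2 called 13 of 76. Where leaving out a library left a group with 2, the spread was shared over all groups; why the counts moved was not tested. Among single-gene values called with the reported settings or with the alternative, 6 turned sign: with principal transcript length offsets COX6A1 over both guides (-0.2198), NDUFB7 (-0.4342) and NDUFS8 (-0.3167) in sgZ1, and COX5B (-0.0057) and NDUFS1 (0.3916) in sgZ3, and with exon-union length offsets NDUFA5 in sgZ3 (0.4688). Members with counts near 0 cannot be compared at this depth.

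With the replicate number as a block, 35 members were called over both guides, 10 in sgZ1, 50 in sgZ3 and 30 in sgZ3 against sgZ1. Calls among all 14732 genes rose as well. In the same order they were 5488, 4202, 5974 and 5005 with the block and 4885, 3807, 5355 and 4209 without it. Deviations of same-numbered libraries from their group means correlated at -0.121 to 0.249, and not every library correlated best with its own number, so the numbers were not taken to pair the libraries.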
